A study of Mus musculus with 54 samples.

Results

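Ba/F3-gp130 cells that carry the construct CIR-2 were compared with the untransfected parental Ba/F3-gp130 line, in 12 of the 27 gene-level arrays of the series. The 6 CIR-2 arrays and the 6 parental arrays were chosen by their titles, and each side held 3 unstimulated arrays (numbers 1, 3 and 5) and 3 arrays of cells given GFP-PFC (numbers 2, 4 and 6). Ba/F3 cells are a murine line labelled as pro-B. The labels call the gp130 form dependent on Hyper-IL-6, in which interleukin-6 is joined to its soluble receptor, and every line was grown with 10 ng/ml of it. CIR stands for Cargo Internalization Receptor, a receptor construct for cell tracking by magnetic resonance imaging, and the stated purpose of the arrays was to see how the constructs as a whole influence the cells. Per the labels' protocols the cells were washed, kept for 3 h in serum-free medium, and stimulated for 1 h with 50 µl/ml of GFP-PFC, an emulsion that the labels name only by these letters. The other arrays used here are 12 arrays of the lines CIR-1 and CIR-3 in the same conditions, while 3 arrays of parental cells given Hyper-IL-6 were left out of the comparison. Whether the arrays within a group stem from different cultures is not stated, nor whether a CIR line is 1 clone or a pool, nor what a CIR construct is made of. The p-values therefore measure only the spread between these arrays, which may be technical, and the construct, the transfection and the history of the CIR-2 line cannot be told apart.

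Ba/F3 cells depend on a cytokine for survival and growth. Their native cytokine is interleukin-3, whose receptor signals through the beta chains Csf2rb and Csf2rb2, and a gp130 chain lets them grow on interleukin-6-type signals through JAK kinases and STAT3. Cargo that binds a surface receptor is taken up by endocytosis and sorted through endosomes towards lysosomes. Pro-B lines kept in long culture often carry mRNAs of other blood lineages, so the lists described here include mast cell, granulocyte, monocyte and erythroid genes.

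The gene-level signals were taken to be on a log2 scale, which the labels do not state and the range of the values bears out, so that a difference of 1 is a doubling. Arrays of 1 group correlated with Pearson r between 0.993 and 0.999 over 19920 genes, and no 2 arrays held identical values. The median signal of an array lay between 7.52 and 7.65, and signals below the mean lower quartile of 6.28 are called dim here. The pro-B label was checked against 21 measured pro-B and B-cell genes. Of these, 7 were dim in both lines, among them Ebf1 at 5.94 in parental cells, Rag2 at 5.31 and Dntt at 6.00. Pax5 at 7.26 and Vpreb1 at 7.13 lay below the array medians, while Ikzf1 at 11.10, Cd79a at 9.71 and Cd79b at 9.95 lay well above them. Bank1, Ikzf1 and Cd79b were higher in CIR-2 by 0.32, 0.23 and 0.20, and no gene of this list was lower. Over all genes 4.65% were higher and 3.81% lower, at an adjusted p under 0.05 in limma. The median difference of the list was -0.03, against 0.00 over all genes, and its summed linear signal ran from 8969 to 9750 in parental and from 9202 to 9972 in CIR-2 arrays. A gene of the list was called lower without parental GFP-PFC 4.

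CIR-2 cells differed from parental cells most in a small set of genes with large changes. The X-linked genes Xlr and 3830403N18Rik, the heparan sulfate sulfotransferase gene Hs3st1, the phospholipase gene Plcb4, the kinase gene Hipk2 and the aldo-keto reductase gene Akr1b8 were higher. The alpha chain of the IgE receptor (Fcer1a), the flippase gene Atp8b4, Gask1b, scinderin (Scin), granzyme B (Gzmb) and myeloperoxidase (Mpo) were lower. With limma and the array number as a block, 1684 of the 19920 genes passed at an adjusted p under 0.05 (Benjamini-Hochberg) in the mean of both conditions, which is 8.45% of the genes tested. Of these, 926 were higher in CIR-2 (4.65%) and 758 were lower (3.81%). Most of them moved little, since 1513 differed by under 0.5, 120 by 0.5 to 1, and 51 by 1 or more. Among the last, 37 were higher (0.186% of genes) and 14 were lower (0.0703%). In 436 genes (2.19%) all 6 CIR-2 arrays lay above all 6 parental arrays, and in 318 (1.6%) all lay below. Without the block 679 genes passed, 446 higher and 233 lower. When each array was centred on its median, 1307 passed, with a split of 861 higher and 446 lower.

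No gene was found whose line difference depended on the condition, though 3 arrays a side cannot show that both conditions gave the same difference. In unstimulated cells 623 genes passed (3.13%), 405 higher (2.03%) and 218 lower (1.09%), and in GFP-PFC cells 596 genes passed (2.99%), 396 higher (1.99%) and 200 lower (1%). Of these genes 445 passed in both, all with the same sign. These counts, with 3 arrays a side, moved by over 1.5 times without single arrays. The unstimulated count was 366 without parental unstimulated 3, 334 without CIR-2 unstimulated 3 and 351 without CIR-2 unstimulated 5. The GFP-PFC count was 372, 332 and 347 without parental GFP-PFC 2, 4 and 6, and 371, 324 and 300 without CIR-2 GFP-PFC 2, 4 and 6.

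No gene passed the test of the difference between these line differences in limma (0%, 511 genes at an unadjusted p under 0.05), and none passed under any alternative setting run. The smallest p belonged to Mcpt2, a mast cell protease gene that was dim in both lines. Its CIR-2 minus parental difference was -0.21 in unstimulated and 0.37 in GFP-PFC cells (difference 0.58 ± 0.11 SE, limma adjusted p 1.00). Gm4907, the next, was higher in CIR-2 in both, by 0.80 unstimulated and by 1.60 with GFP-PFC. Cd300lb, a receptor gene of myeloid cells, was dim and differed by -0.24 and 0.17.

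**Figure D1:**
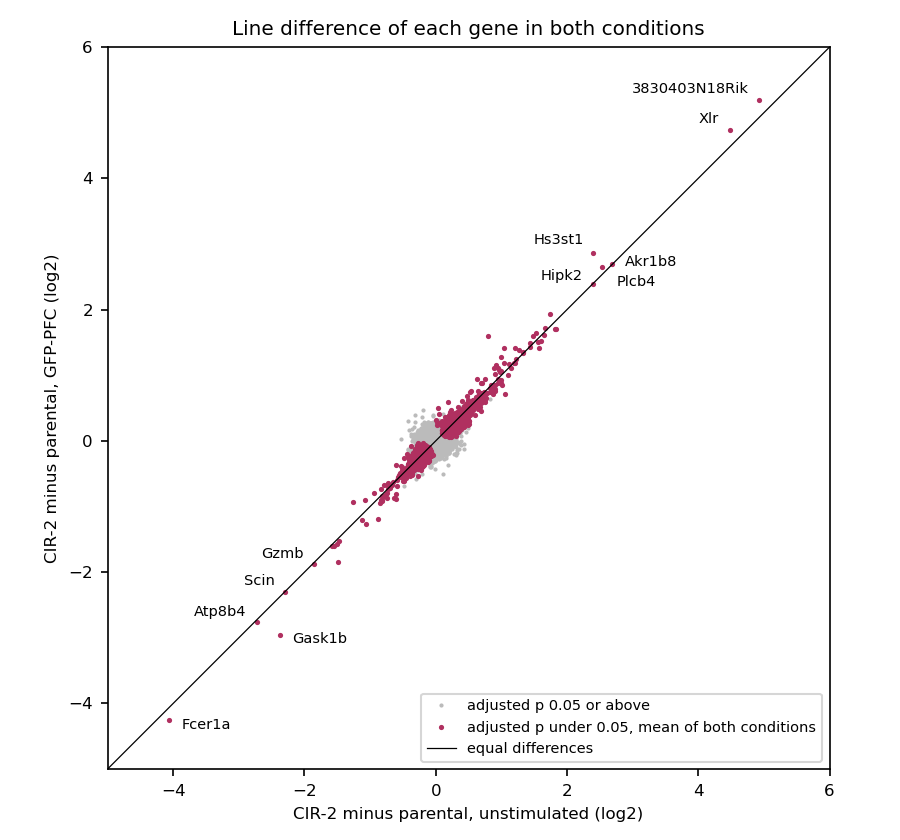
CIR-2 minus parental difference (log2) of each of 19920 genes in unstimulated cells (x) and in GFP-PFC cells (y), 3 arrays a side each. Red points are the 1684 genes that passed in the mean of both conditions, and the line marks equal differences. The named genes lie close to the line, from Fcer1a at -4.06 and -4.26 to 3830403N18Rik at 4.93 and 5.20.

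The largest rise was that of 3830403N18Rik, an X-linked gene, and Xlr, founder of the X-linked lymphocyte-regulated family, came next. The signal of 3830403N18Rik was 5.18 to 5.63 in parental arrays (median 5.40) and 10.30 to 10.67 in CIR-2 arrays (median 10.45). Its difference was 5.06 ± 0.11 (SE), with an adjusted p of 8.57e-15. Xlr gave 5.18 to 6.03 in parental (median 5.61) and 9.80 to 10.40 in CIR-2 (median 10.25), a difference of 4.61 ± 0.12 with an adjusted p of 5.81e-14. No CIR-2 array came near a parental one for either gene. Both were dim in parental cells, so their folds of 33.4 and 24.4 are given as lower bounds. The test against the 2 other CIR lines also passed for both. In CIR-1 the mean of 3830403N18Rik was 7.72 and that of Xlr 5.89, whereas in CIR-3 these were 6.62 and 7.28, so the 2 probe sets did not rise in 1 ratio. Of the other germline genes on the list of 20, M1ap rose by 0.93 and Tdrd9 by 0.55. The other 16 did not pass, with Ddx4, Dazl, Sycp3, Mael and Piwil2 between -0.12 and 0.01. Over all genes 4.65% were higher.

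The promoter windows of the 2 X-linked genes are shown because their signals moved most and because the windows are near copies. They run from 250 bases before to 50 after the start (RefSeq, GRCm38.p6), at chrX:53797657-53797956 on the minus strand for Xlr and chrX:56136322-56136621 on the plus strand for 3830403N18Rik. Capitals mark bases that are identical in the alignment of both windows, 263 of 269 aligned bases (97.8%), beside 6 mismatches and 14 gap positions.
Xlr: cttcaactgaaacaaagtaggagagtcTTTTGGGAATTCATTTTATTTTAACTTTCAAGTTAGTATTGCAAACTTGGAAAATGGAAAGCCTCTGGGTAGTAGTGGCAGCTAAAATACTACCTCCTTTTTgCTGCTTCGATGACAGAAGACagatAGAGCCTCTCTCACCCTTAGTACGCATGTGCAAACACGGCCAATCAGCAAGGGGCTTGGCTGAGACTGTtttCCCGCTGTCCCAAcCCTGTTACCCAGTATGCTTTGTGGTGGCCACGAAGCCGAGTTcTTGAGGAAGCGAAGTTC
3830403N18Rik: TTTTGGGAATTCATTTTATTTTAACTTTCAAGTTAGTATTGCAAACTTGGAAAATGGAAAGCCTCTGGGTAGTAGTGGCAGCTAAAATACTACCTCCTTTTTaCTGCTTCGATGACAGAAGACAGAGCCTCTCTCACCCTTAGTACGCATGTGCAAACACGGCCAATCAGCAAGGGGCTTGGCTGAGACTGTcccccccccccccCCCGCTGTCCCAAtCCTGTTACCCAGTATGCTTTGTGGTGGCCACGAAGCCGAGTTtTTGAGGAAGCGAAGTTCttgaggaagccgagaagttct
Genes this alike can share array probes, and how far each probe set reads the other transcript was not tested.

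Hs3st1, Plcb4 and Hipk2 were higher in CIR-2 than in parental cells and, by the direct tests, than in either other CIR line. Hs3st1, which adds the 3-O-sulfate that antithrombin binds in heparan sulfate, gave 6.56 to 6.73 in parental (median 6.60) and 8.94 to 9.55 in CIR-2 arrays (median 9.25). It was 6.18-fold higher (2.63 ± 0.07, adjusted p 3.06e-14), and its 3 GFP-PFC arrays in CIR-2, at 9.36 to 9.55, lay above the 3 unstimulated ones, at 8.94 to 9.13. The difference between the conditions did not pass. Plcb4, a phosphoinositide phospholipase, rose from a dim 5.99 to 6.19 (median 6.10) to 8.17 to 9.04 (median 8.76), a difference of 2.59 ± 0.09 with an adjusted p of 2.72e-12. Its parental, CIR-1 and CIR-3 signals were dim, so its differences are lower bounds. Hipk2, a kinase that acts on p53 and other nuclear factors, gave 7.90 to 8.32 in parental (median 8.21) and 10.49 to 10.64 in CIR-2 (median 10.56). Its difference of 2.39 ± 0.08 had an adjusted p of 5.93e-13. No parental and CIR-2 arrays overlapped for these genes. Mean signals in CIR-1 and CIR-3 were 6.67 and 6.46 for Hs3st1, 6.15 and 6.24 for Plcb4, and 9.61 and 8.72 for Hipk2. Against the mean of these lines CIR-2 was higher by 2.69 ± 0.06, 2.48 ± 0.08 and 1.40 ± 0.07, with adjusted p of 3.62e-15, 7.33e-13 and 2.01e-10.

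Akr1b8, an NADPH-dependent aldehyde reductase of the aldo-keto family, was 6.46-fold higher. Parental arrays ran from 6.44 to 6.91 (median 6.80) and CIR-2 arrays from 9.35 to 9.56 (median 9.39), a difference of 2.69 ± 0.11 with an adjusted p of 1.17e-11. CIR-3 cells had a mean of 9.64 that did not pass against CIR-2 (adjusted p 0.206), and CIR-1 cells had 7.28. Slc14a1, a urea transporter of red cells and kidney, was 3.57-fold higher than in parental cells, and CIR-2 was lower than CIR-1 by 1.09, with a CIR-1 mean of 10.09. Lcn2, an iron-siderophore binding protein of granulocytes, gave 9.78 to 10.74 (median 10.36) in parental and 11.96 to 12.23 (median 12.05) in CIR-2 arrays. Its difference of 1.77 ± 0.16 (adjusted p 6.00e-07) stood beside 1.79 in CIR-1 and 1.48 in CIR-3. F10, coagulation factor X, was likewise at a similar level in the CIR lines, with 10.97, 10.98 and 10.96 in CIR-2, CIR-1 and CIR-3 against 9.63 in parental cells.

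The other 11 of the 20 highest rises lay between 1.34 and 1.76. They were Mefv (pyrin), Igsf6, the protein arginine deiminase gene Padi3, the desaturase gene Scd3, the zinc finger gene Zfp980, Anxa3, Fam89b, the VEGF receptor gene Flt1, the cathepsin gene Ctsj, the adaptor gene Sla2 and Ifitm6. The last to be named, Ifitm6, rose by 1.34 ± 0.15 (adjusted p 1.10e-05). The CIR-2 and parental arrays did not overlap for any of the 20, while over all genes 2.19% lay wholly above. The 20 were chosen for size and sign, so this and their kept calls are no separate support. In the direct test 15 of the 20 lay further from parental in CIR-2 than in the mean of CIR-1 and CIR-3. Another 4 did not pass, and Anxa3 was lower in CIR-2 by 0.51, with a CIR-3 mean of 11.25 against 9.16. That mean joins unlike lines. Against CIR-3 alone Akr1b8, Flt1 and Ifitm6 did not pass (limma adjusted p 0.206, 0.359 and 0.285), nor did Sla2 against CIR-1 alone (0.497). All 20 kept their call in each of the 23 alternative settings.

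**Figure D2:**
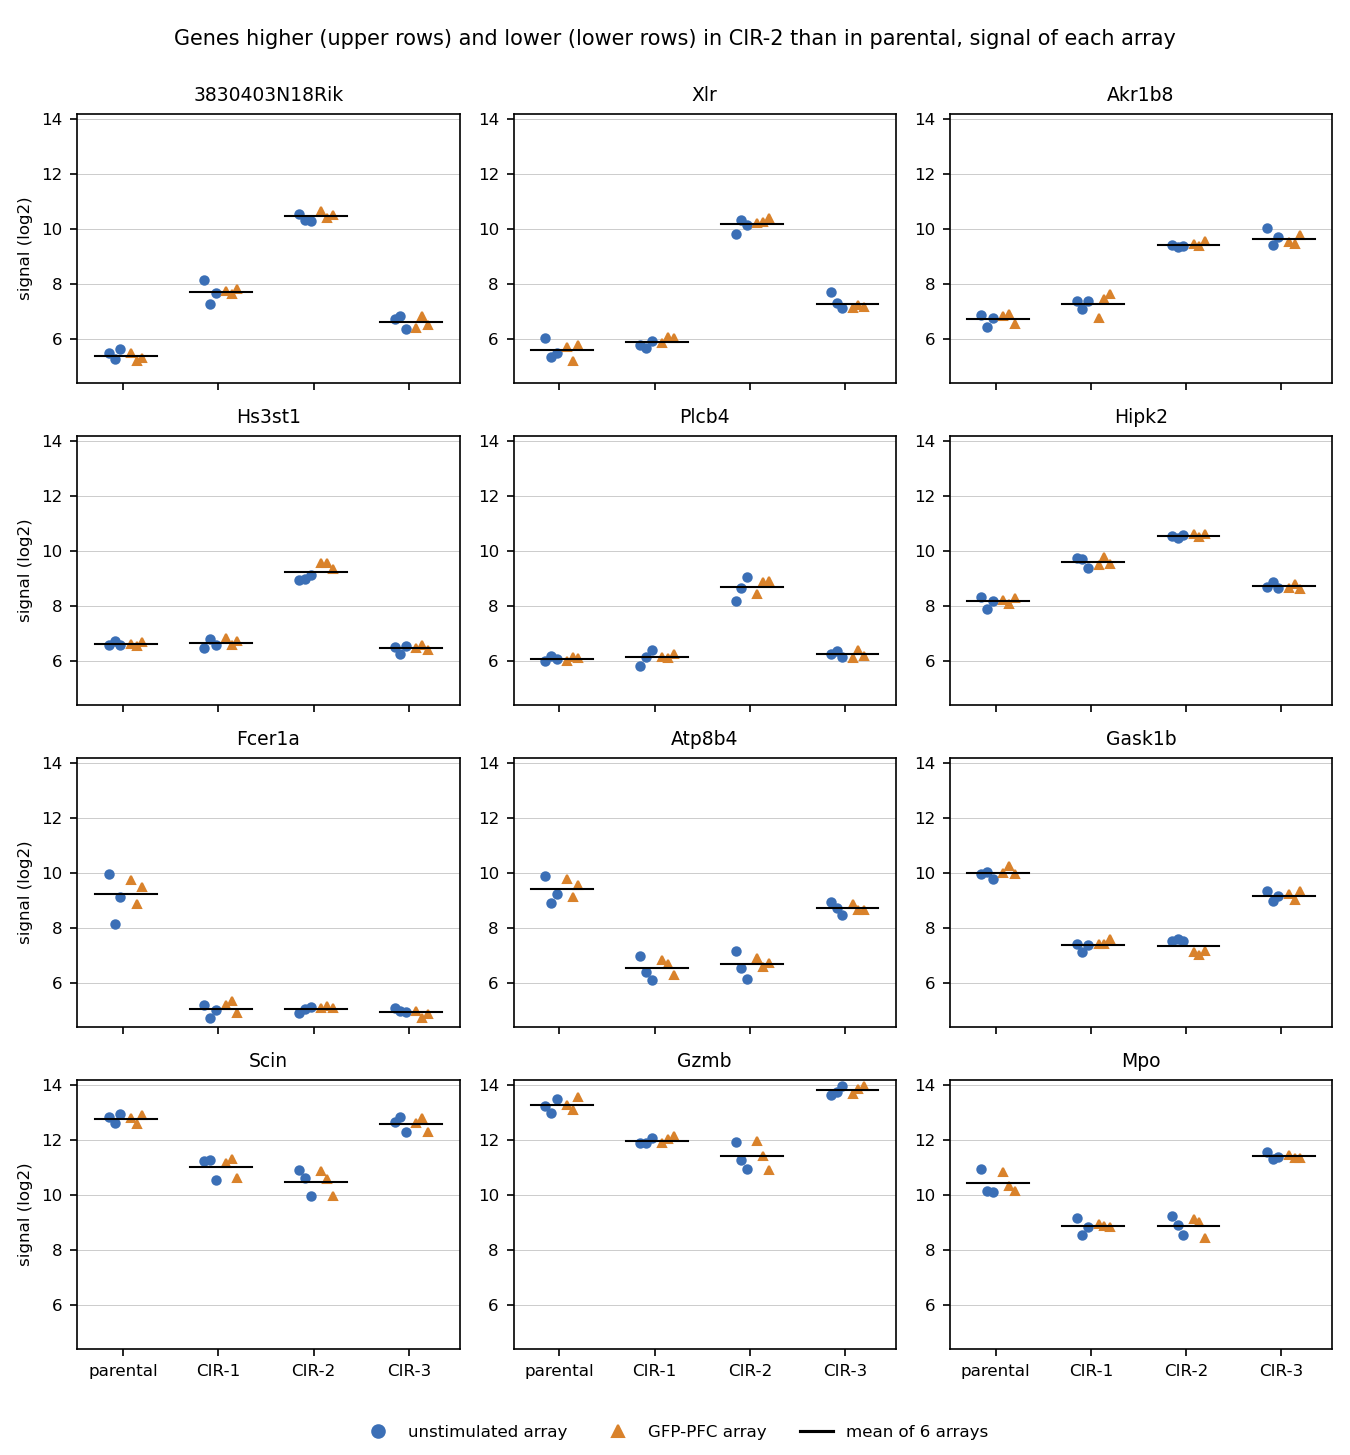
Gene-level signal (log2) of each array in the 4 lines for 6 genes that were higher and 6 that were lower in CIR-2 than in parental cells. Circles are unstimulated arrays, triangles GFP-PFC arrays and bars the mean of 6 arrays. CIR-2 and parental arrays do not overlap in any panel, while Fcer1a lies near 5 in all 3 CIR lines and Hs3st1 and Plcb4 are high in CIR-2 alone.

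The largest fall was that of Fcer1a, which codes for the IgE-binding chain of the high-affinity IgE receptor of mast cells and basophils. Parental signals ran from 8.15 to 9.98 (median 9.33) and CIR-2 signals from 4.91 to 5.15 (median 5.10), a difference of -4.16 ± 0.18 with an adjusted p of 3.79e-11. The CIR-2 signal was dim, so the fold of 17.9 is given as a lower bound. CIR-1 at 5.07 and CIR-3 at 4.94 did not pass against CIR-2 (adjusted p 1.00 and 0.679). Atp8b4, a P4-type ATPase of the flippase family, fell from 8.91 to 9.89 (median 9.41) to 6.16 to 7.17 (median 6.65), by 2.74 on the log2 scale (SE 0.10, adjusted p 2.83e-12). Gask1b, coding for a Golgi-associated protein, fell from 9.79 to 10.27 (median 9.99) to 7.04 to 7.62 (median 7.34), by 2.67 (SE 0.07, adjusted p 9.21e-14). Both had a CIR-1 mean within 0.12 of that of CIR-2 and a higher CIR-3 mean, of 8.73 and 9.19.

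Scin, a calcium-dependent actin-severing protein, gave 12.61 to 12.94 (median 12.84) in parental and 9.96 to 10.93 (median 10.62) in CIR-2 arrays. It fell by 2.30 (SE 0.14, adjusted p 5.39e-09) and was lower than in CIR-3 by 2.09 and than in CIR-1 by 0.55. Gzmb, the serine protease of cytotoxic granules, gave 12.99 to 13.57 (median 13.26) against 10.92 to 11.99 (median 11.36), a fall of 1.86 (SE 0.17, adjusted p 6.29e-07). Mpo, the peroxidase of neutrophil primary granules, gave 10.12 to 10.97 (median 10.26) against 8.46 to 9.24 (median 8.98), a fall of 1.54 (SE 0.10, adjusted p 1.04e-08). No arrays overlapped for these 3 genes. Gzmb and Mpo stood above the parental level in CIR-3, by 0.53 and 0.98, and below it in CIR-1, by 1.29 and 1.55.

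The other 14 of the 20 largest falls lay between 0.86 and 1.67. They include the chemokine receptor gene Ccr1, the lectin receptor genes Clec4e and Clec12a, Mettl7b, the annexin gene Anxa1, the growth factor gene Csf1, the glutathione transferase gene Gstm1, the cathepsin gene Ctss and Hdc, the enzyme that makes histamine. The arrays did not overlap for 15 of the 20, the exceptions being Serpini1, Olfr1251, Csf1, Depdc7 and Bex6. Over all genes 1.6% lay wholly below, and these 20 too were chosen for size and sign. In the direct test 7 of the 20 were lower in CIR-2 than in the mean of CIR-1 and CIR-3. Another 12 did not pass, and C1ra was higher by 0.48. That mean again joins unlike lines. Against CIR-1 alone Mpo, Gask1b, Atp8b4 and Gzmb did not pass (limma adjusted p 0.988, 0.876, 0.714 and 0.0737). Of the 20 falls only Scin and Csf1 were lower in CIR-2 than in CIR-1 alone (limma adjusted p 0.0346 and 0.00595). In 18 of the 20 the call held in all 23 alternatives, while without the block Olfr1251 had an adjusted p of 0.063 and Depdc7 one of 0.0624.

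The exon-level values of the same arrays, which read each exon with its own probe sets, gave the same sign and an adjusted p under 0.05 for all 20 rises and all 20 falls. For Olfr1251 this was given in advance, since its only exon-level probe set holds the gene-level values. The exon-level values come from the same hybridisations and are no second measurement. For Plcb4, 37 of 38 exon probe sets were higher in CIR-2, from -0.03 to 5.43. For Hs3st1, 3 of 4 were higher, with a median of 3.68 and a lowest of -0.15. All 16 probe sets of Scin lay between -2.59 and -2.07, and all 7 of Gzmb between -2.07 and -1.76. Fcer1a ran from -5.80 to -1.09 over 5 probe sets, and Flt1 from -0.11 to 4.64 over 33. The probe sets of Scin, Gzmb and Mpo spread less than those of the other genes drawn.

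**Figure D3:**
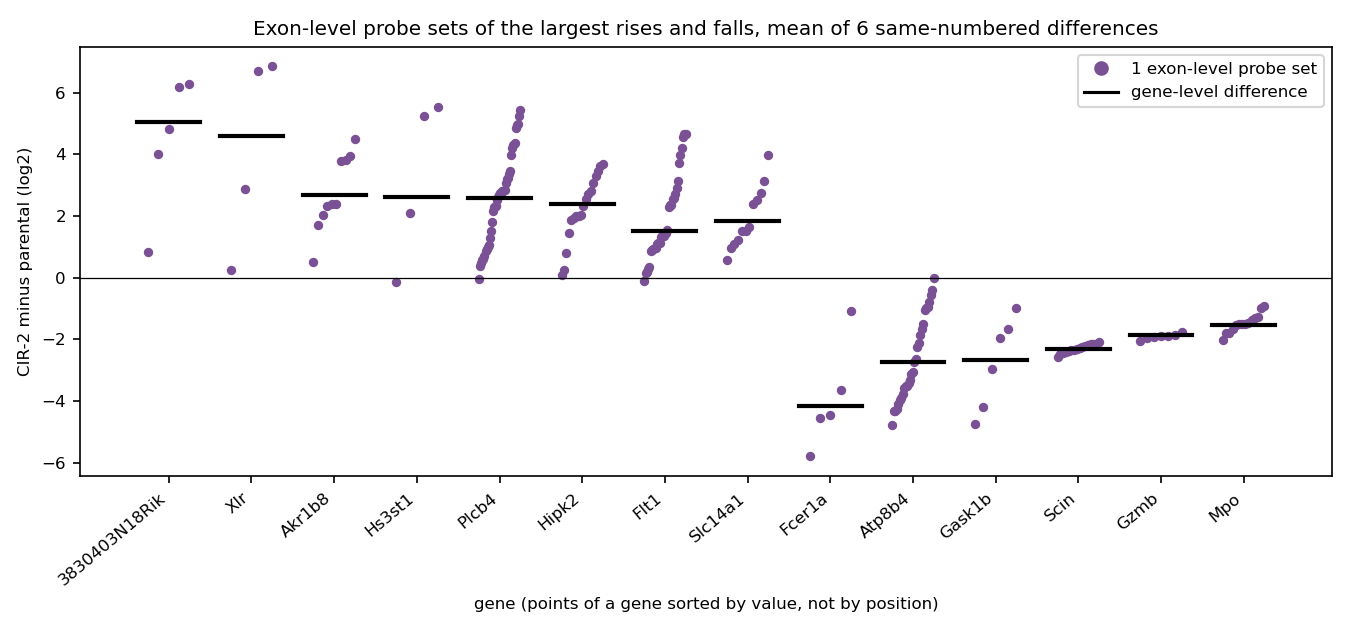
CIR-2 minus parental difference (log2, mean of 6 same-numbered differences) of every exon-level probe set of 14 genes. Points are single probe sets sorted by value, and bars are the gene-level differences. Scin, Gzmb and Mpo probe sets lie in narrow bands (Scin from -2.59 to -2.07), while Plcb4 and Flt1 span from near 0 to 5.43 and 4.64.

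The promoter window of Fcer1a is shown as that of the largest fall. It lies at chr1:173227180-173227479 on the minus strand of GRCm38.p6. Capitals mark the match to the GATA motif, searched on both strands as AGATAA or, equally, AGATAG, and besides these TGATAA or, equally, TGATAG. Of 32851 windows 29.8% hold a match.
Fcer1a: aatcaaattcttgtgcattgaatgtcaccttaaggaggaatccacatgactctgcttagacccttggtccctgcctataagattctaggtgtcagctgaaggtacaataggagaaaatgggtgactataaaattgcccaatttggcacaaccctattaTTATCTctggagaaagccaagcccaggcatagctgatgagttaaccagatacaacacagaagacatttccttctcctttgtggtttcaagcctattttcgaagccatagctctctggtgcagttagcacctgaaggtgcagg
Gata2, a GATA factor gene of mast and progenitor cells, was slightly higher in CIR-2, by 0.26 ± 0.04 (adjusted p 0.000807), and Gata1 by 0.25 ± 0.05 (adjusted p 0.00226).

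Genes of DNA replication and S-phase entry were lower in CIR-2, each by a small amount. Of 22 measured DNA replication and G1/S genes, 13 fell and 2 rose, with a median of -0.16 against 0.00 over all genes. Over all genes 3.81% were lower and 4.65% higher. At all 6 numbers, 17 of the 22 were lower and 2 were higher, against 8.59% and 7.03% of all genes. The licensing factor gene Cdt1 gave 11.72 to 12.06 (median 11.84) in parental and 11.39 to 11.73 (median 11.55) in CIR-2 arrays, a difference of -0.32 ± 0.04 with an adjusted p of 5.38e-05. The ranges of Cdt1 touched, but each CIR-2 array lay below the parental array of its number. Rrm2, a ribonucleotide reductase subunit, and the helicase subunit Mcm7 fell by 0.23 each. The loader Cdc6 fell by 0.22, the cyclin Ccne2 by 0.22, Mcm3 by 0.20 and Cdc45 by 0.20. Smaller falls were those of Ccne1, Mcm5, Mcm6, Pola1, Mcm2 and Mcm4, down to 0.10. The D-type cyclin genes went the other way, with Ccnd3 at 0.46 ± 0.05 and Ccnd2 at 0.23 ± 0.04. E2f1 at -0.17 and Pcna at -0.09 did not pass (adjusted p 0.052 and 0.0501).

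The count of falls in this list depended on how the arrays were paired. It was 2 of 22 without the block, 6 without the arrays numbered 1 and 2, 9 in the exon-level values and 9 to 14 without any single array. Of 21 measured mitotic G2/M genes none passed in limma, in the main setting or in any alternative run. They lay between -0.12 (Mki67) and 0.07 (Ube2c), with a median of 0.02. The CIR-1 and CIR-3 differences from the same parental arrays were -0.22 and -0.24 for Cdt1, and in the direct test none of the 22 replication genes passed.

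The windows of Cdt1, the largest fall, and of Mcm6 are shown with the E2F motif in capitals. Mcm6 had the most matches among the genes of the list whose matches were counted, which were not all of them. The motif was searched on both strands as TTTCCCGC, TTTCGCGC, TTTGCCGC and TTTGGCGC, and matches on opposite strands can overlap, as in Mcm6. Cdt1 lies at chr8:122567765-122568064 (plus strand) and Mcm6 at chr1:128359656-128359955 (minus strand).
Cdt1: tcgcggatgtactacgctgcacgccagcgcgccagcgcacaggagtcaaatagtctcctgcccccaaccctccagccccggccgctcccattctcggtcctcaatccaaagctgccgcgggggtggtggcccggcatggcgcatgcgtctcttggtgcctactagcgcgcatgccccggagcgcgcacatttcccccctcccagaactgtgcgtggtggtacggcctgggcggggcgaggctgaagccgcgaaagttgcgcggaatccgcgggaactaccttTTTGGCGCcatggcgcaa
Mcm6: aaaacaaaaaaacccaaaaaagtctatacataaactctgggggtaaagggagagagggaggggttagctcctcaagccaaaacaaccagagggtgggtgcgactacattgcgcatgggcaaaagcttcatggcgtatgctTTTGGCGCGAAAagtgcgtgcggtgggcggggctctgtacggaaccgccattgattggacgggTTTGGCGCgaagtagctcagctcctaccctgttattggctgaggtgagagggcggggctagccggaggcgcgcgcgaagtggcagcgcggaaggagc
A match was found in windows of 7 of the 11 lower genes that have a window (Cdc6, Cdt1, Mcm3, Mcm5, Mcm6, Mcm7 and Pola1), and in 1 of the 16 G2/M genes with a window. In the whole replication list, whatever the direction, 8 of 17 genes with a window held one, and 704 of all 27025 genes did. Of all 32851 windows, 2.27% hold one. A match is a sequence feature of the window and shows no binding in these cells.

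**Figure D4:**
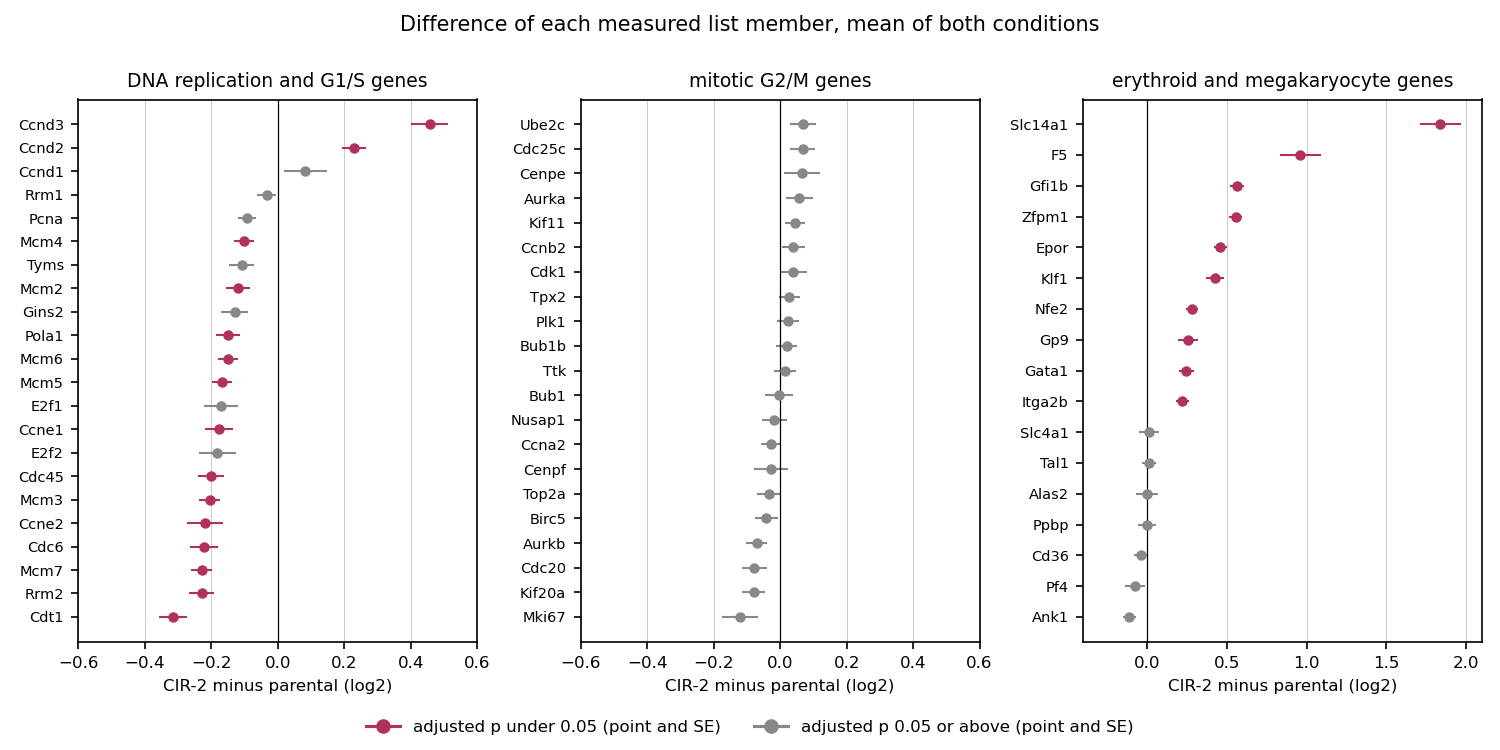
CIR-2 minus parental difference (log2, point and SE, mean of both conditions) of each measured member of 3 gene lists. Red points passed at an adjusted p under 0.05. Of the replication and G1/S genes 13 lie below and 2 above 0 in red, no G2/M gene is red, and 10 of 17 erythroid and megakaryocyte genes are red above 0.

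Genes of the erythroid and megakaryocyte lineages were higher in CIR-2. Of 17 measured members 10 rose and none fell, with a median of 0.25, against 4.65% higher over all genes. In 7 of the 17 all CIR-2 arrays lay above all parental arrays, as in 2.19% of all genes. The summed linear signal of the list ran from 14591 to 16858 in parental and from 19362 to 22251 in CIR-2 arrays. How far the share of cells of 1 kind, rather than RNA per cell, sets such a sum cannot be told apart in bulk arrays. Slc14a1 rose by 1.84 and F5, coagulation factor V, by 0.96. Gfi1b, a repressor needed for red cells and platelets, gave 11.39 to 12.23 (median 11.83) in parental and 12.21 to 12.61 (median 12.40) in CIR-2 arrays, a rise of 0.56 ± 0.05 (adjusted p 1.82e-07) with overlapping ranges. Zfpm1, the GATA1 partner FOG1, rose by 0.56 ± 0.04 and did not overlap. Epor, the erythropoietin receptor gene, gave 8.73 to 8.85 against 9.10 to 9.37, a rise of 0.46 ± 0.04 (adjusted p 3.83e-07). Klf1, Nfe2, Gp9, Gata1 and Itga2b rose by 0.43, 0.28, 0.26, 0.25 and 0.22. The 7 others, Alas2, Ank1, Tal1, Slc4a1, Pf4, Ppbp and Cd36, lay between -0.11 and 0.01. Pf4, Ppbp and Cd36 were dim in both lines. The rises of this list numbered 8 in the exon-level values, 8 without the block and 10 without any single array. Klf1 lost its call in the exon-level values (limma adjusted p 0.0744).

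The other CIR lines also stood above parental cells in several of these genes, though not at a shared level. Gfi1b was above the shared parental arrays by 0.64 in CIR-1 and 0.53 in CIR-3, Zfpm1 by 0.64 and 0.40, and Epor by 0.42 and 0.30. In the direct test against the mean of CIR-1 and CIR-3 no member passed as higher in CIR-2, and F5 was lower, by 1.03 ± 0.11 (adjusted p 1.81e-05). That mean joins unlike lines for Slc14a1, which was above CIR-3 by 1.74 (adjusted p 8.64e-08) and differed from CIR-1 by -1.09 (adjusted p 5.45e-05). Against CIR-3 alone Epor and Zfpm1 were also higher, by 0.16 and 0.15 (adjusted p 0.0208 and 0.0282). Of 16 stem and progenitor genes Lmo2, Mecom, Myb and Gata2 rose, by 0.47, 0.38, 0.33 and 0.26. All 4 calls held without any single array. Runx1 fell by 0.28, and its call was lost without parental unstimulated 5 or GFP-PFC 6 and without CIR-2 unstimulated 5 or GFP-PFC 6. The list's median was -0.01, and over all genes 4.65% were higher and 3.81% lower.

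Receptor genes for the cytokines these cells grow on moved little. Il6st, the gene of gp130 itself, gave 6.20 to 6.45 in parental and 6.30 to 6.45 in CIR-2 arrays, on both sides of the dim limit in parental and just above it in CIR-2, and did not differ beyond the spread (0.00 ± 0.04). Whether its probes read the introduced gp130 is not given in the sources used here. Il6ra at 0.06 ± 0.05 and Il3ra at 0.03 ± 0.04 did not pass. The interleukin-3 receptor beta chains were lower. Csf2rb2 gave 13.03 to 13.27 (median 13.21) in parental and 12.54 to 12.81 (median 12.73) in CIR-2 arrays, with no overlap, a difference of -0.47 ± 0.09 with an adjusted p of 0.00141. Csf2rb gave 13.30 to 13.62 (median 13.52) against 13.02 to 13.24 (median 13.20), also without overlap (-0.33 ± 0.09, adjusted p 0.0303). Against the mean of CIR-1 and CIR-3 both were lower too, by 0.50 ± 0.07 and 0.33 ± 0.08 (adjusted p 0.000554 and 0.0234). Against CIR-1 alone Csf2rb2 passed but Csf2rb did not (limma adjusted p 0.00965 and 0.251), while both passed against CIR-3 alone (0.000298 and 0.00694). Csf2rb and Csf2rb2 are close paralogues, and how far their probe sets read each other was not tested.

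In the haematopoietic cytokine receptor list 1 of 22 genes rose (Epor) and 3 fell (Csf2rb2, Csf2rb and Il18r1), with a median of 0.02. The counts of this paragraph stand beside 4.65% higher and 3.81% lower over all genes. Only 1 of the 3 falls remained without parental unstimulated 5 or without CIR-2 GFP-PFC 6, and 1 of 3 without the block. Csf2rb lost its call when any of 5 single arrays was left out (parental unstimulated 3 and 5 and GFP-PFC 4, CIR-2 unstimulated 5 and GFP-PFC 6) and Il18r1 with any of 7. Of 19 gp130, JAK and STAT genes Il27ra, Stat3 and Jak1 rose by 0.20, 0.15 and 0.14, and Stat2, Stat5b and Stat6 fell by 0.17, 0.17 and 0.16. None of the 6 passed without the block. A single rise was left when parental unstimulated 5, parental GFP-PFC 6 or CIR-2 unstimulated 1, GFP-PFC 2 or unstimulated 3 was left out, and a single fall without parental GFP-PFC 4, parental unstimulated 5 or CIR-2 unstimulated 3, GFP-PFC 4 or GFP-PFC 6. Stat2 was also lower than in the mean of CIR-1 and CIR-3 in the direct test, by 0.33.

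Among 20 early target genes of gp130 and STAT3, Socs3, the feedback inhibitor, did not pass (-0.01 ± 0.11), Pim2 rose by 0.67 ± 0.07 and Bcl6 fell by 0.51 ± 0.10. The counts of this paragraph stand beside 4.65% higher and 3.81% lower over all genes. Pim2, a survival kinase gene, gave 10.88 to 11.76 (median 11.42) in parental and 11.41 to 12.35 (median 12.31) in CIR-2 arrays. Its ranges overlapped although each CIR-2 array exceeded the parental array of its number, and neither Pim2 nor Bcl6 passed without the block. The count of rises was 3 without parental unstimulated 1 and 2 without parental GFP-PFC 2 or CIR-2 GFP-PFC 6, and that of falls was 2 without CIR-2 GFP-PFC 2. Of 25 immediate early and ERK feedback genes, 20 had a negative difference and 1 fell. This was Ier3, an apoptosis regulator induced by growth signals, at -0.77 ± 0.18 (adjusted p 0.0111), which did not overlap and lost its call without the block (adjusted p 0.0683). Fos at -0.46 and Jun at -0.44 did not pass (adjusted p 0.102 and 0.0617). The median of this list was -0.10. Another gene of the list fell without CIR-2 unstimulated 1 or without CIR-2 GFP-PFC 2. The falls of this list numbered 5 in a fit of only the lines compared and 5 with array weights. They numbered 3 without the arrays numbered 1 and 2, 2 in the exon-level values and 0 without the block.

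Genes of the uptake route changed little, and their counts stand beside 4.65% higher and 3.81% lower over all genes. None of 25 clathrin endocytosis genes passed, in limma, with differences from -0.10 (Ap2a2) to 0.12 (Eps15) and a median of 0.02. In the exon-level values 3 were called higher, and at gene level 1 was when parental unstimulated 1, parental GFP-PFC 4 or CIR-2 unstimulated 1 was left out. Without parental unstimulated 1, another was called lower. Of 29 endocytic cargo and scavenger receptor genes Tfr2 and Tfrc, the transferrin receptors, rose by 0.30 ± 0.07 and 0.23 ± 0.05. Olr1, Scarb2 and Lrp12 fell by 0.43, 0.17 and 0.16. Tfr2 lost its call without parental GFP-PFC 6, and Lrp12 without any of 6 single arrays. Of 23 lysosome genes Ctss fell by 0.87 ± 0.06, with 8.28 to 8.61 (median 8.46) in parental and 7.45 to 7.88 (median 7.50) in CIR-2 arrays and no overlap. Neu1, the lysosomal sialidase gene, rose by 0.26, a call lost without parental GFP-PFC 6. Another lysosome gene fell without CIR-2 GFP-PFC 2.

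Markers of other blood cell types changed in both directions, and the counts stand beside 4.65% higher and 3.81% lower over all genes. Of 21 mast cell and basophil genes 2 rose (Fcer1g by 0.28 and Gata2 by 0.26) and 4 fell (Fcer1a, Hdc, Mcpt8 and Cma1), with a median of -0.03 and 7 dim in both lines. Hdc gave 7.81 to 8.98 (median 8.47) in parental and 7.29 to 7.76 (median 7.59) in CIR-2 arrays, without overlap. Mcpt8 and Cma1 fell by 0.17 and 0.15 at signals near the dim limit, and 2 of the 4 falls remained without parental GFP-PFC 2, CIR-2 GFP-PFC 2 or CIR-2 unstimulated 5. Ms4a2, the beta chain of the IgE receptor, did not pass at 0.25 ± 0.13 (adjusted p 0.324). The summed linear signal of the list ran from 26253 to 28810 in parental and from 28394 to 30650 in CIR-2 arrays.

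Of 15 granzyme and cytotoxic granule genes Gzmb and the dim Gzmc fell. Their summed linear signal was 34965 to 39189 in parental and 28329 to 31826 in CIR-2 arrays, and 6 of the 15 were dim in both lines. Of 20 neutrophil genes Lcn2 and Padi4 rose and Mpo fell, with Elane at -0.05 and Prtn3 at 0.13 not passing. Their sum was 12709 to 14454 in parental and 15973 to 17565 in CIR-2 arrays. The median differences of the granzyme and neutrophil lists were -0.01 and 0.04. Since 13 of 15 and 17 of 20 members did not pass, neither sum shows a shift of its whole list. Of 20 monocyte and macrophage genes Fcgr1, Lgals3 and Itgam rose, by 0.43, 0.36 and 0.23, and Clec4e, Clec12a, Clec4d and Cd68 fell, the first by 1.59 and the last by 0.20. Their sum was 4349 to 5302 in parental and 3774 to 4138 in CIR-2 arrays. The part of other cell types in the line difference was not tested. Itgam lost its call without any of 7 single arrays. None of 13 NK-cell genes passed in limma, while 1 was called lower without parental unstimulated 3 or CIR-2 unstimulated 1. Of 15 T-cell genes Lat rose by 0.19 and Thy1 fell by 0.15, calls lost when any of 6 and of 9 single arrays was left out, parental GFP-PFC 2 and 4, unstimulated 3 and 5 and CIR-2 unstimulated 3 and GFP-PFC 4 in both cases.

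Lists drawn up around the most changed genes held further changed members, most of them by small amounts. The lists were chosen with those genes known, and their counts stand beside 4.65% higher and 3.81% lower over all genes. Of 31 phospholipase C, protein kinase C and calcium genes 6 rose, namely Plcb4, Prkd3 (1.11 ± 0.09), Plcl2, Plcb2, Plcg2 and Prkce, and none fell. The last 4 lay between 0.15 and 0.27, and Prkce lost its call when any of 8 single arrays was left out. A gene of this list was called lower without parental unstimulated 3. Of 25 actin severing and adhesion genes 8 rose and 1 fell (Scin). The rises include Icam2, an adhesion ligand, at 0.69 ± 0.05, gelsolin (Gsn) at 0.50 ± 0.06, destrin (Dstn) at 0.32 and the integrin chain Itga6 at 0.30. In these 4 all CIR-2 arrays lay above all parental arrays, as in 2.19% of all genes. Of 27 aldo-keto reductase, aldehyde dehydrogenase and NRF2 genes 5 rose and 5 fell. Among them Akr1b8 and Nqo1 (0.51 ± 0.09) rose while Akr1c13 (-0.80 ± 0.07) and Hmox1 (-0.53 ± 0.13) fell. Hmox1 lost its call without parental GFP-PFC 4, CIR-2 unstimulated 5 or CIR-2 GFP-PFC 6, and the 5 rises were 3 without parental GFP-PFC 2 or 4 or unstimulated 3, or without CIR-2 GFP-PFC 2, 4 or 6 or unstimulated 3 or 5.

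Of 25 HIPK, p53 and apoptosis genes Hipk2, Bcl2l1 (0.48 ± 0.05), Sesn1 (0.47 ± 0.08) and Apaf1 (0.21) rose and Zmat3 fell by 0.45. Another fall was called without parental unstimulated 1 or 5 or CIR-2 GFP-PFC 2. Apaf1 lost its call when any of 7 single arrays was left out. Of 26 heparan sulfate genes Hs3st1, Hpse and Xylt1 rose and Glce fell, with sizes of 0.34, 0.28 and 0.21 for the last 3, and another fall was called without parental unstimulated 3. Of 28 flippase and fatty acyl genes Plin2, Far2, Scd2 and Atp11b rose by at most 0.24, and Atp8b4, Atp10a, Fads1 and Atp8b2 fell, the last 3 by 0.29, 0.22 and 0.22. The 4 rises were 2 without parental GFP-PFC 6 or CIR-2 unstimulated 3, unstimulated 5 or GFP-PFC 6. Of 25 interferon-stimulated genes Oas2, Oas1a and Psmb9 rose by 0.34, 0.21 and 0.19 and Stat2 fell, a call lost without parental unstimulated 5 or CIR-2 unstimulated 1. Of 17 cholesterol synthesis genes Mvd rose by 0.20 and Dhcr7 fell by 0.13, and of 22 ribosome biogenesis genes Rrp12 and Polr1b fell by 0.19 and 0.15. The calls of Mvd, Dhcr7, Rrp12 and Polr1b were lost when any of 6, 9, 5 and 2 single arrays was left out, parental GFP-PFC 2 and CIR-2 GFP-PFC 6 for Polr1b and CIR-2 GFP-PFC 6 among them for the other 3. The medians of these lists lay between -0.03 and 0.03.

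Set against the mean of CIR-1 and CIR-3, in the fit of all 24 arrays, CIR-2 differed in 840 genes (4.22%), 321 higher (1.61%) and 519 lower (2.61%). With quantile normalization the split was 452 and 455 of 907. The count was 816 in a fit of only the lines compared, 237 without the block, and 481, 470 and 406 without CIR-2 unstimulated 3, GFP-PFC 4 and GFP-PFC 6. Against CIR-1 alone 677 genes passed (3.4%), 329 higher (1.65%) and 348 lower (1.75%), and against CIR-3 alone 1572 (7.89%), 537 higher (2.7%) and 1035 lower (5.2%). In 272 genes (1.37%) CIR-2 lay above both other CIR lines at all 6 numbers and in 465 (2.33%) below both, and the genes named next were taken from these. Beside Xlr, 3830403N18Rik, Hs3st1, Plcb4 and Hipk2, the 10 highest were Igsf6, Far2, Fam89b, Ptpn22 and Slc24a5. Fam89b gave 10.97 to 11.92 in CIR-2 arrays and 9.89 to 10.11 in all arrays of the 3 other lines. It was 1.46 ± 0.10 above the mean of CIR-1 and CIR-3 (adjusted p 3.39e-08). Ptpn22, a lymphocyte tyrosine phosphatase, had means of 9.18, 7.64, 9.85 and 9.33 in parental, CIR-1, CIR-2 and CIR-3. Far2, a fatty acyl-CoA reductase, had 12.71, 10.20, 12.95 and 12.44, and CIR-2 was above CIR-1 by 2.75 and above CIR-3 by 0.50. Its rise of 0.24 over parental cells lost its call when any of 8 single arrays was left out.

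The 10 lowest, by the same rule, were Lgals3, M1ap, Csf1, Scin, Tcp11x2, F5, Scgb1c1, Arntl2, Tnfaip2 and Gli2. Lgals3, galectin-3, gave 8.27 to 8.53 in parental and 8.67 to 8.82 in CIR-2 arrays, against 10.12 to 10.66 in CIR-1 and 12.15 to 12.44 in CIR-3. CIR-2 was thus lower than their mean by 2.56 ± 0.06 (adjusted p 7.14e-15) and higher than parental by 0.36 ± 0.07 (adjusted p 0.00226). M1ap and F5 also had a CIR-2 mean above parental and below both other CIR means, and Scgb1c1 and Gli2 did so with calls against parental that were lost in 2 alternatives. Arntl2 and Tnfaip2 did not pass against parental (0.03 and 0.32, adjusted p 0.883 and 0.0742). Tcp11x2 lay lowest in CIR-2, with means of 8.04, 8.85, 7.60 and 8.76 in parental, CIR-1, CIR-2 and CIR-3. Csf1, the macrophage growth factor gene, had a mean of 8.89 in CIR-2, 9.89 in parental and 11.24 in CIR-3 cells, and its CIR-2 arrays, at 8.41 to 9.37, overlapped those of CIR-1, at 9.11 to 9.78. Of the 1684 genes that passed against parental, 364 also passed here, and in 51 of these the 2 differences had opposite signs.

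**Figure D5:**
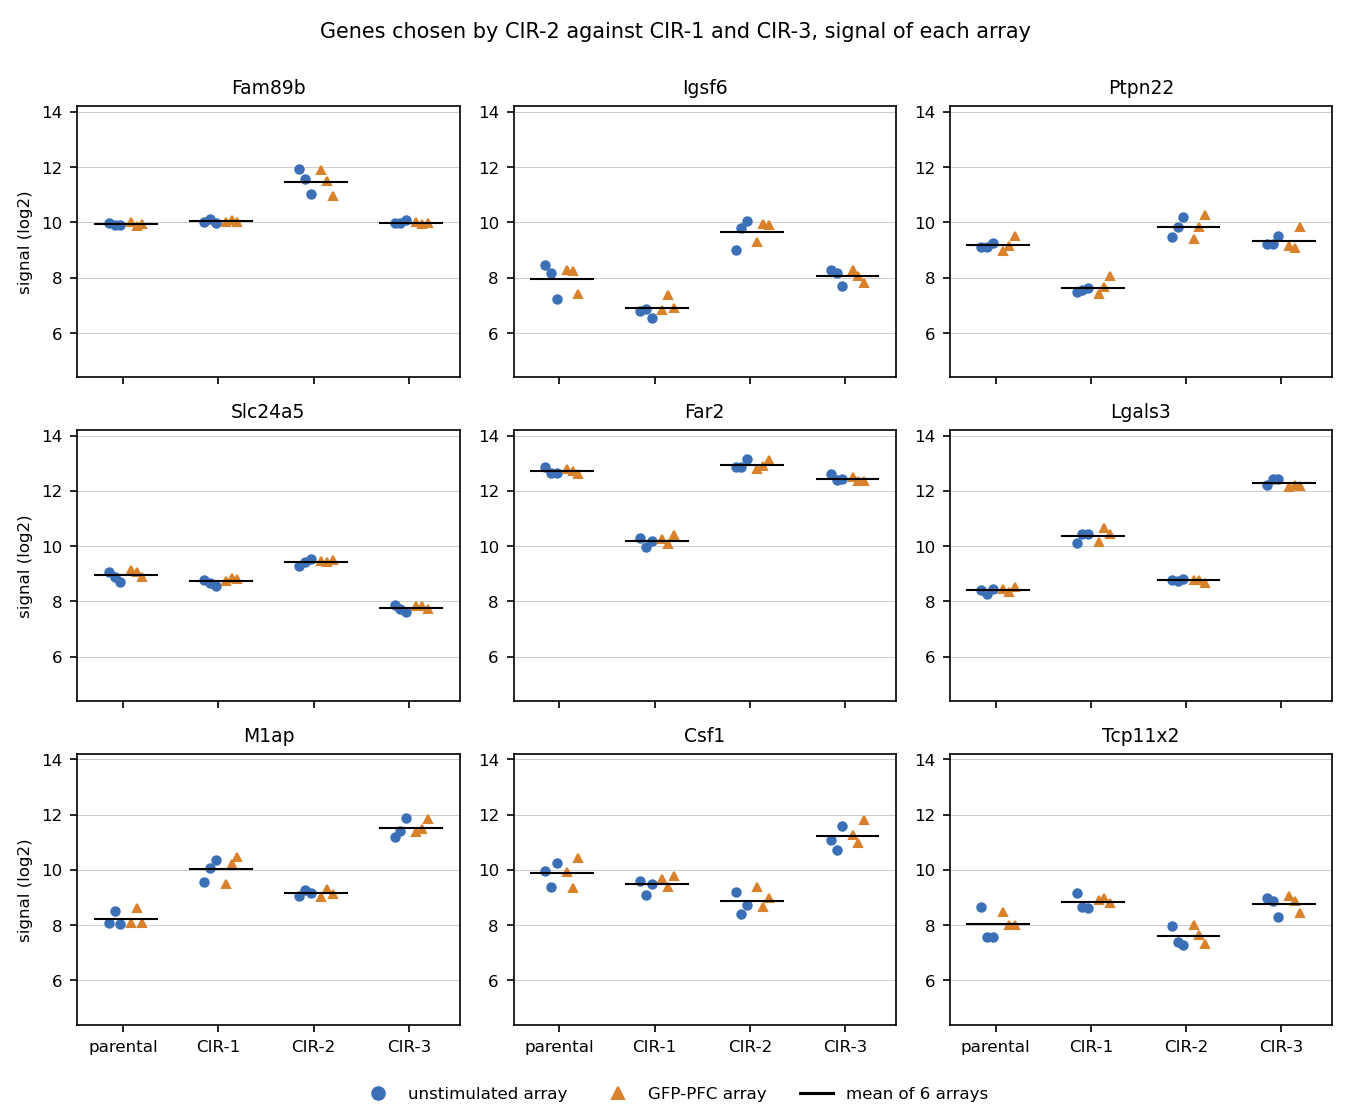
Gene-level signal (log2) of each array in the 4 lines for 5 genes chosen as high and 4 as low in CIR-2 against CIR-1 and CIR-3. Circles are unstimulated arrays, triangles GFP-PFC arrays and bars the mean of 6 arrays. Fam89b is high in CIR-2 alone, while the Lgals3 means climb from 8.41 in parental and 8.77 in CIR-2 to 10.37 in CIR-1 and 12.28 in CIR-3.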

How the data were processed

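The deposited values are log2 signals of Affymetrix arrays, which the authors made with Expression Console at core-gene and core-exon level, per the labels. The summarisation, normalization, log base and genome build are not given in the sources used here. The log2 scale is inferred from the range of the values. Total RNA (RIN above 8 per the labels) of 24 arrays in 8 groups of 3 entered a single fit, and 3 parental arrays given Hyper-IL-6 were left out. Of 35556 gene-level probe sets 21789 name 1 gene symbol. The probe set with the highest mean stood for each gene, which gave 19920 genes. Symbols come from the platform annotation and can be old.

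limma 3.58.1 in R 4.3.3 fitted group means with the array number (1 to 6) as a block, leaving 12 residual degrees of freedom. All p-values are two-sided and were adjusted over the 19920 genes by the Benjamini-Hochberg method, with a threshold of 0.05. Parental and CIR-2 arrays of the same number deviated together from their group means (r 0.32 to 0.62 over the 6 numbers). In all 36 same-numbered array pairs of the 4 lines r was above 0.1, the lowest being 0.14 (parental and CIR-3). Parental and CIR-2 arrays of unlike numbers in a condition gave r from -0.51 to 0.30. A cut of 0.1 thus does not separate same-numbered from other pairs, and the pairing comes from the titles. Arrays of consecutive numbers deviated together as strongly (r 0.35 to 0.63), so the 6 numbers may form 3 rounds. Counts at all 6 numbers therefore do not rest on 6 pairs known to be independent. With 3 rounds as the block 1744 genes passed in the mean of both conditions, against 1684 as reported. The number of arrays limits the precision, and arrays have no counting depth. The scripts were tested on simulated data. Named genes were the 20 highest rises and 20 largest falls that had the same sign at all 6 numbers, up to 6 passing members of each of 28 lists, all passing receptor genes, the 10 highest and 10 lowest against CIR-1 and CIR-3 among genes beyond both at all 6 numbers, and the 3 smallest p for the condition. The members and lists were chosen with earlier results of these data known. Alternatives were other blocks, normalizations, probe set choices, array weights, a filter on dim genes, exon-level values and leaving out arrays. Promoter windows are those of RefSeq (GRCm38.p6).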

Additional observations from a re-analysis of the deposited data

Results flagged for a closer look

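For 13 named genes the difference from parental cells passed with opposite signs in CIR-2 and in another CIR line, and these lines differed by the direct limma test. CIR-2 minus CIR-1 was 2.77 for Igsf6, an immunoglobulin superfamily gene of myeloid cells, 2.75 for Far2, 2.21 for the phosphatase gene Ptpn22, 0.71 for Slc24a5 and 0.54 for Itgam. It was -1.25 for Tcp11x2 and -0.31 for Stat2. CIR-2 minus CIR-3 was -2.22 for the lectin receptor gene Clec12a, -2.35 for the growth factor gene Csf1, -2.39 for Gzmb, -2.52 for Mpo, -1.11 for Depdc7, -1.15 for Tcp11x2 and -0.36 for Stat2. It was 1.67 for Slc24a5, 0.50 for Far2 and 0.46 for the integrin gene Itga6. The calls of Far2, Itgam and Stat2 against parental were lost without single arrays (8, 7 and 2 of them). Those of Tcp11x2 and Depdc7 in CIR-2 were lost without the block. Several calls of the other line lay near the threshold. The limma adjusted p was 0.0460 for Stat2 in CIR-1. In CIR-3 it was 0.0448 for Gzmb, 0.0393 for Depdc7, 0.0370 for Clec12a and 0.0368 for Itga6. How these calls of CIR-1 and CIR-3 hold in other settings was not tested.

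The line difference of Mcpt2 was below 0 in all 3 unstimulated and above 0 in all 3 GFP-PFC numbers, a change of 0.58. Cd300lb did the same, with a change of 0.40. This pattern of signs was not tested as such, both genes were dim in both lines, and in limma the adjusted p of the change was 1.00 for each.

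Of 12146 probe sets with no gene symbol, 6703 had the same values in the exon-level table, and of these 56 were higher and 65 lower. Of the other 5443, 82 were higher and 44 lower, against 4.65% and 3.81% of the 19920 genes. Among these 5443, probe set 10560726 was higher in CIR-2 by 1.11 and 10573054 by 1.10. The largest falls were -2.18 for probe set 10530156 and -1.84 for 10345791.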

How the results depend on the processing

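Of 129 named genes that passed, 74 kept their call in all 23 alternatives and 105 without any single array, and none of them changed sign. Without the replicate block, which pairs arrays of 1 number, 679 genes passed in the mean of both conditions, 214 in unstimulated cells, 213 in GFP-PFC cells and 237 against CIR-1 and CIR-3, and 84 of the 129 named genes kept their call. With all 27 arrays and no block these counts were 757, 240, 234 and 275. With array weights they were 2654, 1309, 1177 and 2203. With only the lines compared, and the block, 341 passed unstimulated and 294 with GFP-PFC, and without the arrays numbered 1 and 2 the GFP-PFC count was 343. Leaving out single arrays gave 1215 to 1650 genes in the mean of both conditions, 334 to 643 unstimulated, 300 to 661 with GFP-PFC and 406 to 998 against CIR-1 and CIR-3. Centring each array on its median gave 65.9% higher calls, against 55.0% as reported, leaving out the arrays numbered 1 and 2 gave 66.1%, and dropping the block 65.7%. The change of the line difference with GFP-PFC passed for 0 genes in limma in every setting run (511 genes at an unadjusted p under 0.05 as reported). The cause of these shifts was not tested. Dim signals limit folds, and 3 arrays a side limit the counts within a condition.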
